A study of Mus musculus with 29 samples.

Results

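The nuclear genes of respiratory complexes III, IV and V and of cytochrome c were followed through mouse hearts in which a tumour and a liver-directed vector were combined. They were chosen by symbol alone (Uqcr genes, Cyc1, Cycs, Cox4 to Cox8 genes and Atp5 genes, without pseudogenes), which gave 45 of 20411 genes in the count table. Of these, 9 encode complex III, 1 is the somatic cytochrome c gene Cycs, 18 encode complex IV and 16 complex V. The remaining gene, Atp5sl, carries the ATP synthase name but is known as an assembly factor. Enough counts for testing were found for 43 of the 45, among 12928 tested genes in all. Cox8c and Cox7b2, testis forms of complex IV subunits, had 0 counts in all 29 libraries and were not tested.

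Complex III passes electrons from ubiquinol to cytochrome c, a small soluble carrier, and complex IV passes them from cytochrome c to oxygen. Both complexes pump protons across the inner mitochondrial membrane, and complex V, the ATP synthase, lets the protons back through a rotating ring of c subunits to make ATP. The heart depends on this chain for most of its ATP, and several complex IV subunits have a form that is typical of heart and skeletal muscle beside a widespread form.

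All mice were wildtype BALB/c. Each was given an adeno-associated virus whose cargo, GFP (a fluorescent control protein) or the clock repressor REV-ERBα, was driven by Tbg, a promoter used by hepatocytes. Tumour-bearing mice had C26 colon carcinoma cells, a model of cancer cachexia, placed under the skin 10 days after the vector, and the other mice were injected with saline (PBS). The hearts formed the groups PBS_GFP (4 animals), PBS_REV-ERBa (5), C26_GFP (10) and C26_REV-ERBa (10). The labels used here state neither age nor the time of collection.

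Libraries held 3207497 to 16853646 counts. The 5 libraries above 10000000 counts were all from GFP mice, 2 of PBS_GFP and 3 of C26_GFP. The genes described here took 1.45% ± 0.0787 (SD, n = 4) of the counts in PBS_GFP, 1.40% ± 0.0802 (SD, n = 5) in PBS_REV-ERBa, 1.28% ± 0.0752 (SD, n = 10) in C26_GFP and 1.37% ± 0.109 (SD, n = 10) in C26_REV-ERBa. Markers of ventricular cardiomyocytes were abundant in every library, with a summed level of 33372 to 50862 CPM (counts scaled to library size) over 8 genes. Markers of atrial muscle varied widely, and 8 libraries, 1 of PBS_GFP, 1 of PBS_REV-ERBa, 3 of C26_GFP and 3 of C26_REV-ERBa, exceeded 5 on the log2 CPM scale for the atrial list's mean.

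Per kilobase of counted length, the catalytic head of the ATP synthase was the most abundant component. Atp5b (beta subunit) had 1282 ± 84.5 CPM per kilobase (SD, n = 29) and Atp5a1 (alpha subunit) 1230 ± 91.3. Next came Uqcrfs1, the Rieske iron-sulphur protein of complex III, with 1070 ± 139 CPM per kilobase, and Uqcrq, a small complex III subunit, with 810 ± 91.7. Within complex IV the muscle form Cox6a2 (520 ± 52.2 CPM per kilobase) stood far above the widespread form Cox6a1 (53.2 ± 6.81), and Cox4i1 (486 ± 39.7) far above its alternative Cox4i2 (7.44 ± 1.74). The 3 genes that encode the same mature c subunit of the ring were unequal, with Atp5g3 at 674 ± 84.5, Atp5g1 at 360 ± 54.3 and Atp5g2 at 45.9 ± 4.36 CPM per kilobase. Cycs had 102 ± 20.9 CPM per kilobase. Cox6b2, a testis form, was the lowest tested gene at 3.63 ± 1.29 CPM per kilobase. Markers of germ cells were at most 0.364 CPM in sum in any library.

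**Figure D1:**
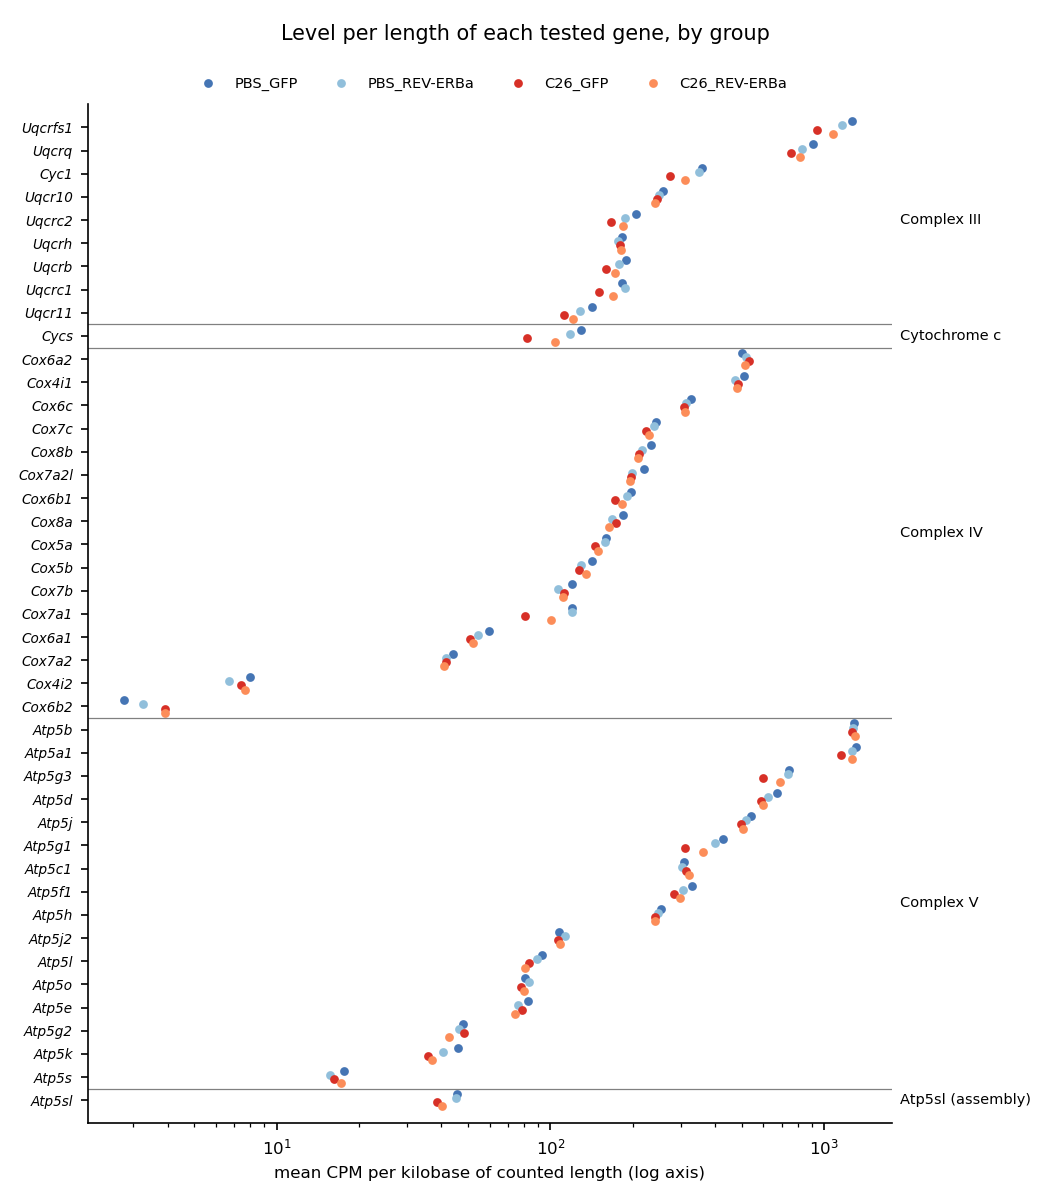
Mean CPM per kilobase of counted length (log axis) of the 43 tested genes in each of the 4 groups, ordered by level within each complex. Atp5b, Atp5a1 and Uqcrfs1 lie near or above 1000, and the C26_GFP point of Cycs and of most complex III genes lies to the left of the others.

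Promoter sequence was available for 35 of the 45 genes. The 250 bases upstream of the start are shown for 3 of the 4 genes that were lower with a tumour and higher again with the REV-ERBα vector (Cycs, Uqcrfs1 and Atp5g3, below), and for Atp5g2, the c-subunit gene that did not pass the tumour test and was lower with the vector in tumour-bearing mice. Capitals mark matches to any of 6 motifs searched on both strands: NRF1 by its palindromic core, ETS or GABPA (CCGGAAG), ERR (AAGGTCA), the REV-ERB element (TAGGTCA, which shares AGGTCA with the ERR motif), YY1 (AAGATGGCG) and the cAMP response element (TGACGTCA). The sequences are from RefSeq (GRCm38.p6), 5′ to 3′ on the gene's minus strand, at chr6:50566570-50566819 for Cycs, chr13:30545317-30545566 for Uqcrfs1, chr2:73911327-73911576 for Atp5g3 and chr15:102671048-102671297 for Atp5g2. The Cycs window ends 95 bases upstream of the start given in the count table, the others directly at it.
Cycs: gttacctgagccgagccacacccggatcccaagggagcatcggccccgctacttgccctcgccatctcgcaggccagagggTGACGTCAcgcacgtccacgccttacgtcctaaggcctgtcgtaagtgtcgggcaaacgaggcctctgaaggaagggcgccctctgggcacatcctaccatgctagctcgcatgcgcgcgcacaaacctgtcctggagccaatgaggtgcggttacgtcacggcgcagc
Uqcrfs1: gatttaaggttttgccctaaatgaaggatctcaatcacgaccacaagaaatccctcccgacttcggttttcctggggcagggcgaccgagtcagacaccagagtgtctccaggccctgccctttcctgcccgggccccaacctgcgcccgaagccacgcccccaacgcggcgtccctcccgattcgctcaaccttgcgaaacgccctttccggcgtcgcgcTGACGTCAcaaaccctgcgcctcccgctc
Atp5g3: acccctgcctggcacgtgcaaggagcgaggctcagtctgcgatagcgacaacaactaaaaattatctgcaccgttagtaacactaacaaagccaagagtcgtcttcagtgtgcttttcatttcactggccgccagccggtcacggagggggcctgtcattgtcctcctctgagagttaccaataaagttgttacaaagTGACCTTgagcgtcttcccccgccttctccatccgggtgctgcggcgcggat
Atp5g2: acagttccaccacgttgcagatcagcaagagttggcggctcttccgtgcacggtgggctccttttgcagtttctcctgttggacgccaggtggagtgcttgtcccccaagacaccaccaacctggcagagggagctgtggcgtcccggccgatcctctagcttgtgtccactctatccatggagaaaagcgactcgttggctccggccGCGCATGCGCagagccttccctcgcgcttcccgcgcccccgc
The windows of Cycs and Uqcrfs1 each held a cAMP response element, and no other of the 35 genes did; 1.77% of 27025 genes with a window had one. Atp5g3 held an ERR motif on the opposite strand, as did Atp5l among the 35 (4.7% of all genes), and Atp5g2 held an NRF1 motif. The window of Atp5g1, the fourth gene with that pattern, held none of the 6. NRF1 motifs were found in 5 of 35 (4.23% of all genes), ETS motifs in 8 (7.83%), YY1 motifs in 2 (0.71%) and the REV-ERB element in 1, Cox7b (2.55%). Of the 35 genes, 11 were lower with a tumour in GFP mice. NRF1 motifs were in 0 of these 11 and in 5 of the other 24, and ETS motifs in 1 and 7. Whether any motif goes with a change was not tested. The shares of all genes are over the 27025 genes with a window, tested here or not. Those genes were not matched to the 35 by level or base content. The genes Uqcrc2, Cyc1, Uqcrb, Uqcrq, Cox4i1, Cox4i2, Cox6a2, Cox6c, Cox8c and Atp5a1 had no entry.

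In GFP mice, hearts with and without a C26 tumour were compared first. Of the 43 genes, 16 fell and none rose, while over all tested genes 14% fell and 14.2% rose (28.2% in either direction). The median log2 fold change of the 43 was -0.15, against -0.00 over all genes, and 39 of 43 values were negative. Changes are from edgeR's quasi-likelihood test, given as log2 fold change ± standard error, and a gene is called changed at a Benjamini-Hochberg adjusted p under 0.05 over all tested genes. The calls were spread unevenly: 7 of 9 genes of complex III, Cycs, 2 of 16 of complex IV, 5 of 16 of complex V, and Atp5sl. Whether the complexes differ from each other was not tested. In these whole-tissue libraries fewer cells of a type and less RNA per cell cannot be told apart.

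**Figure D2:**
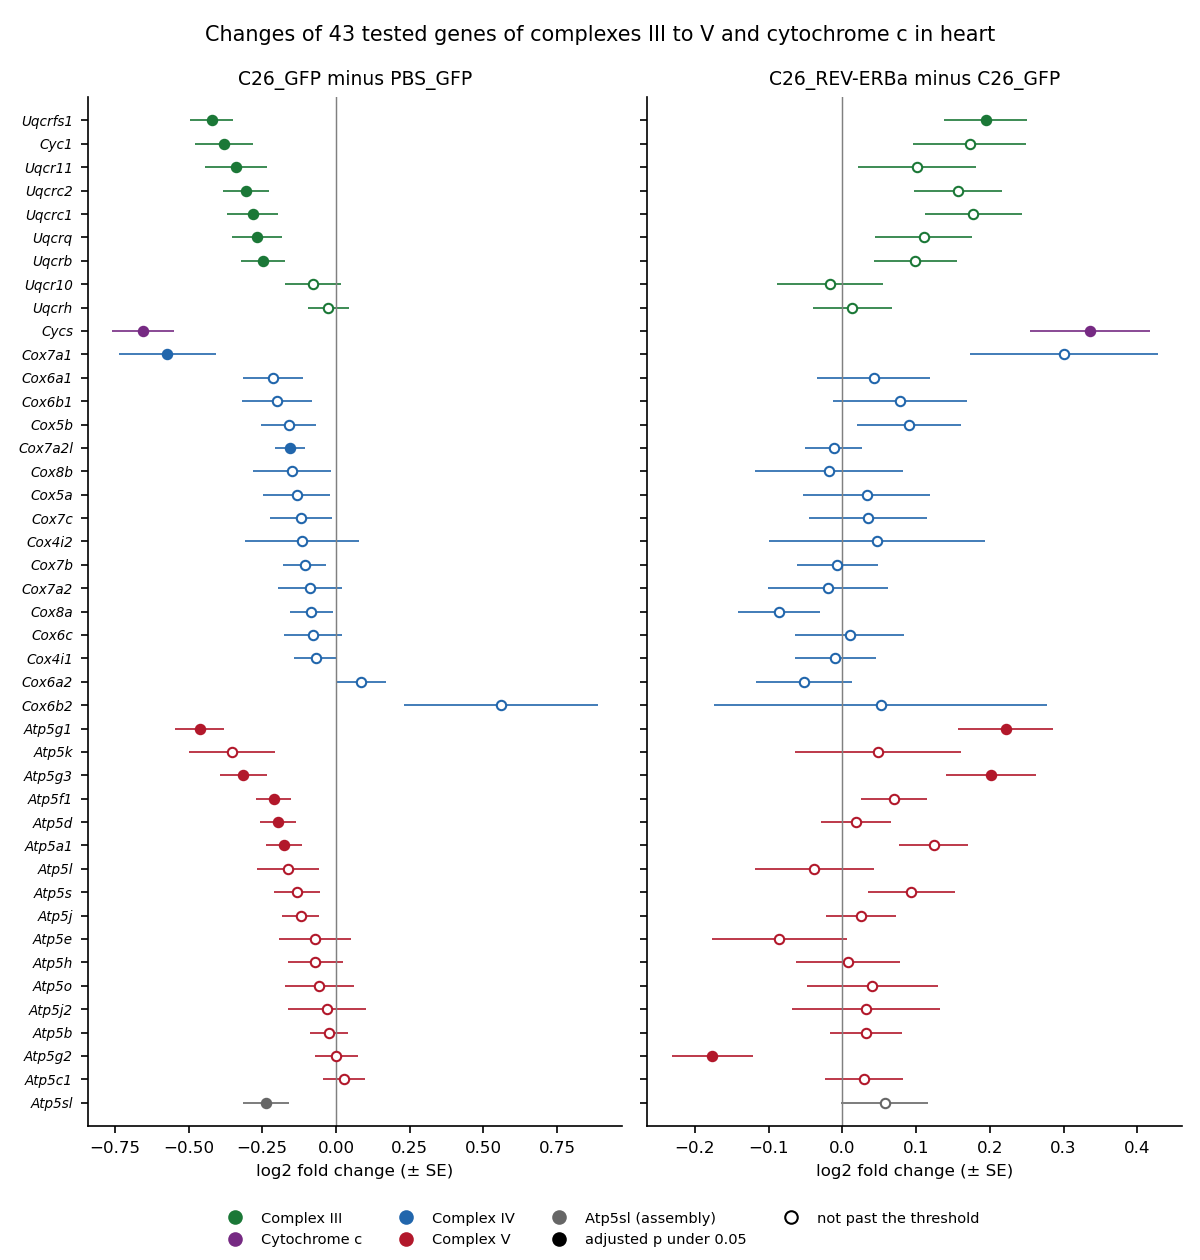
Log2 fold change with its standard error for the 43 tested genes, ordered by complex, for C26_GFP minus PBS_GFP (left) and C26_REV-ERBa minus C26_GFP (right); filled points passed an adjusted p of 0.05. On the left 16 filled points lie below 0, led by Cycs at -0.66, and on the right 4 lie above 0 and Atp5g2 lies below; both panels use the C26_GFP libraries and have different horizontal scales.

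Both electron-transferring subunits of complex III that nuclear genes encode fell. Genes of mitochondrial DNA were not analysed here. Uqcrfs1 (NM_025710, chromosome 13, 30540312 to 30545316, minus strand, mm10) had 1672, 1624, 1713 and 1616 CPM in the PBS_GFP hearts, and 1113 to 1365 CPM with a median of 1234 in the 10 C26_GFP hearts. Each C26_GFP heart therefore lay below each PBS_GFP heart. The change was -0.42 ± 0.07 (edgeR adjusted p = 1e-04). Cyc1, cytochrome c1 (NM_025567, chromosome 15, 76343523 to 76345934, plus strand), had 471, 397, 413 and 423 CPM in PBS_GFP and 276 to 384 CPM (median 330) in C26_GFP. The groups again did not overlap, and the change was -0.38 ± 0.10 (edgeR adjusted p = 0.00463).

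The core proteins of complex III, which shape its matrix side, also fell. Uqcrc1 had 338, 287, 309 and 276 CPM in PBS_GFP and 223 to 281 CPM (median 249) in C26_GFP, a change of -0.28 ± 0.09 (edgeR adjusted p = 0.014), and 9 of 10 C26_GFP hearts lay below the lowest PBS_GFP heart. Uqcrc2 changed by -0.30 ± 0.08 (edgeR adjusted p = 0.00376), also with 9 of 10 below. It overlaps Pdzd9 on the opposite strand by 228 bases. Among the small subunits, Uqcr11 (-0.34 ± 0.10), Uqcrq (-0.27 ± 0.09) and Uqcrb (-0.25 ± 0.07) fell. The hinge protein Uqcrh, which touches cytochrome c, had a value of -0.03 ± 0.07 (edgeR adjusted p = 0.826), and Uqcr10 one of -0.08 ± 0.10 (edgeR adjusted p = 0.576). These small values do not show that the 2 genes were unaffected: their differences from Uqcrfs1 were not tested.

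The cytochrome c gene Cycs (NM_007808, chromosome 6, 50562563 to 50566474, minus strand), whose protein also triggers apoptosis when it leaves the mitochondrion, had the largest fall among the 43. Its levels were 420, 395, 398 and 374 CPM in PBS_GFP, and 193 to 330 CPM with a median of 246 in C26_GFP. No C26_GFP heart reached the lowest PBS_GFP heart. The change was -0.66 ± 0.10, a fold of 0.635 (edgeR adjusted p = 4.07e-05). Cycs is among the genes known to have processed pseudogenes, so its reads may be shared with near-identical copies, and its absolute level is uncertain.

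**Figure D3:**
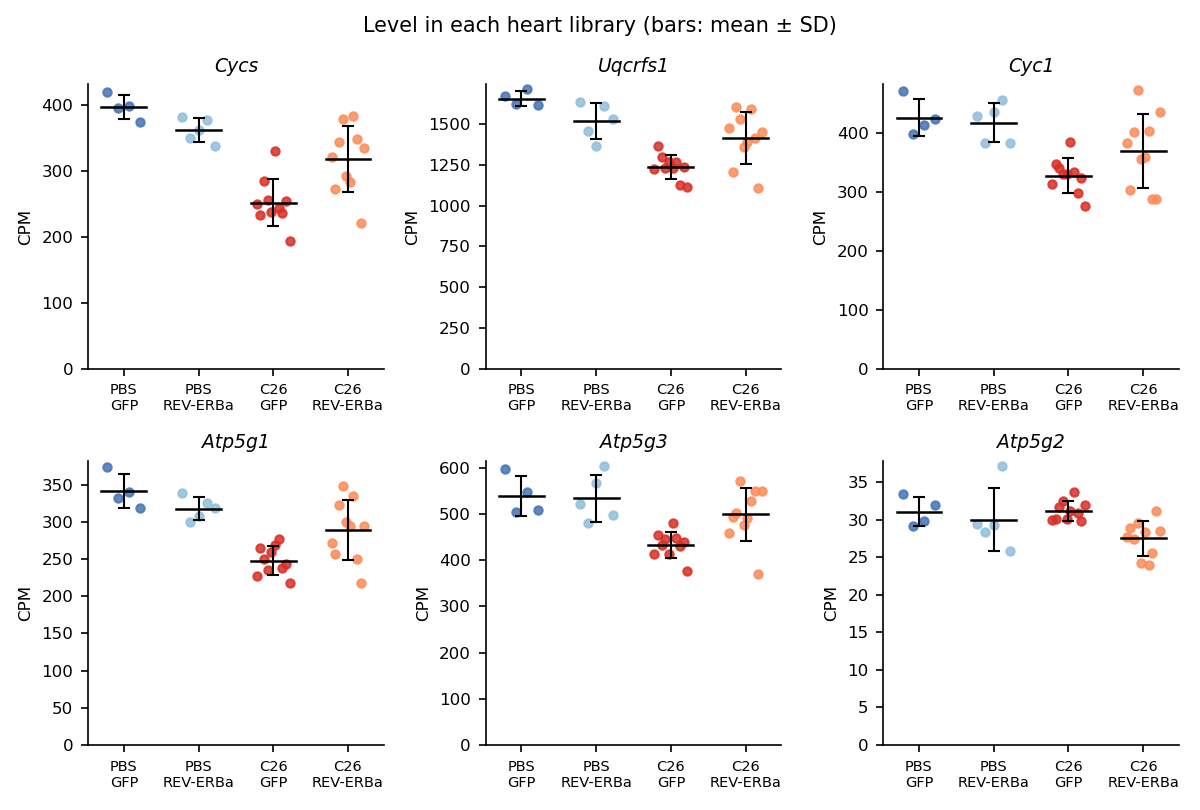
CPM in each library for 6 genes in the 4 groups, with the mean and SD as bars. For Cycs, Uqcrfs1, Cyc1, Atp5g1 and Atp5g3 the 10 C26_GFP points lie below all 4 PBS_GFP points, and the C26_REV-ERBa points spread between the 2 groups or beyond them; for Atp5g2 9 of 10 C26_REV-ERBa points lie below the C26_GFP points.

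Most of complex IV did not pass the test. Its catalytic core is encoded by mitochondrial DNA and was not analysed here. Of the 16 nuclear subunit genes tested, the muscle form Cox7a1 (NM_009944, chromosome 7, 30184171 to 30186030, plus strand) fell, from 53.9, 38.6, 46.8 and 36.3 CPM in PBS_GFP to 18.6 to 38.2 CPM (median 30.6) in C26_GFP. A single C26_GFP heart overlapped the PBS_GFP range. The change was -0.57 ± 0.16 (edgeR adjusted p = 0.00945). Cox7a2l, which helps to join complexes III and IV in supercomplexes, had 254, 255, 254 and 247 CPM in PBS_GFP and 199 to 246 CPM in C26_GFP, a change of -0.16 ± 0.05 (edgeR adjusted p = 0.0218).

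The subunits around the catalytic core had values nearer to 0. Cox4i1, the widespread form of subunit 4, had 414, 359, 392 and 351 CPM in PBS_GFP and 322 to 409 CPM in C26_GFP, a value of -0.07 ± 0.07 (edgeR adjusted p = 0.508), with overlapping groups. Cox5a, its partner in early assembly, had a value of -0.13 ± 0.11 (edgeR adjusted p = 0.41). The muscle forms Cox6a2 and Cox8b had values of 0.08 ± 0.09 and -0.15 ± 0.13. The other 10 subunit genes ranged from -0.21 ± 0.10 for Cox6a1 to 0.56 ± 0.33 for the testis form Cox6b2, which had 0.947 to 2.01 CPM in PBS_GFP and 1.03 to 3.38 CPM in C26_GFP.

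A ratio of isoforms within a library does not depend on how libraries are scaled, so the muscle forms were compared with their widespread partners as log2 count ratios. The 4 pairwise group comparisons of 6 ratios gave 24 tests, adjusted together. For Cox7a1 over Cox7a2 the PBS_GFP values were 0.27 to 0.53 and the C26_GFP values -0.63 to 0.19, with no overlap. The difference of means was -0.50 (exact permutation test, two-sided, p = 0.002, adjusted p = 0.016, lower in 10 of 10). Cox7a2 itself had a value of -0.09 ± 0.11 (edgeR adjusted p = 0.577). For Cox6a2 over Cox6a1 the difference was 0.32, in the other direction (exact permutation p = 0.014, adjusted p = 0.0671), above the highest PBS_GFP heart in 6 of 10, and it did not pass. For Cox8b over Cox8a it was -0.06 (exact permutation adjusted p = 0.875) and for Cox4i2 over Cox4i1 -0.07 (exact permutation adjusted p = 0.875). Cox4i2 overlaps Bcl2l1, and Cox6a2 overlaps Itgad, on the opposite strand.

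**Figure D4:**
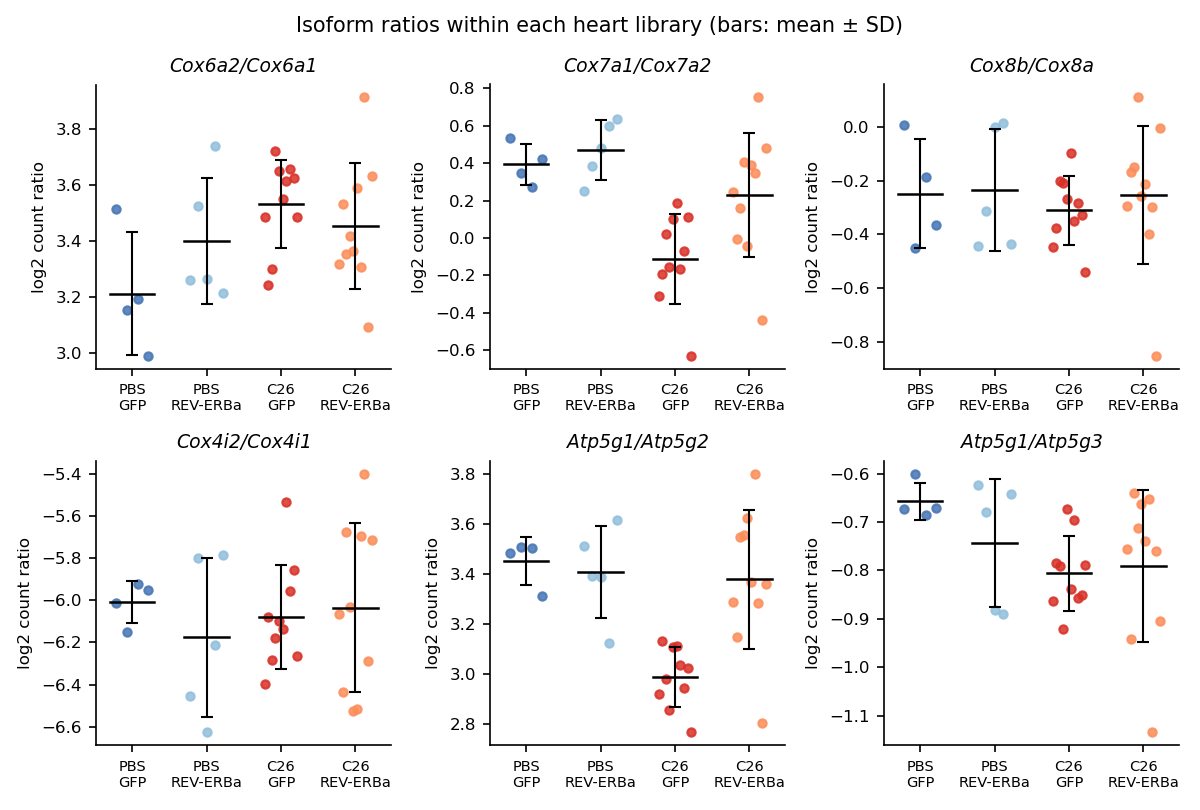
Log2 count ratio of isoform pairs in each library of the 4 groups, with the mean and SD as bars. Cox7a1 over Cox7a2 and Atp5g1 over Atp5g2 are lower in all 10 C26_GFP hearts than in the 4 PBS_GFP hearts, while Cox8b over Cox8a and Cox4i2 over Cox4i1 overlap in all groups.

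In complex V, 2 of the 3 genes of the ring subunit fell. Atp5g1 (NM_007506, chromosome 11, 96072793 to 96075694, minus strand) had 374, 333, 341 and 319 CPM in PBS_GFP and 218 to 277 CPM (median 247) in C26_GFP, without overlap, and fell by 0.46 ± 0.08 on the log2 scale (edgeR adjusted p = 0.000162). Atp5g3 (NM_001301721, chromosome 2, 73908447 to 73911326, minus strand) had 596, 505, 548 and 508 CPM in PBS_GFP and 376 to 481 CPM (median 435) in C26_GFP. It changed by -0.31 ± 0.08 (edgeR adjusted p = 0.00363), again without overlap. Atp5g2 (NM_026468, chromosome 15, 102662868 to 102671047, minus strand) had 33.4, 29.2, 29.8 and 32.0 CPM in PBS_GFP and 29.8 to 33.7 CPM in C26_GFP, and its value was 0.00 ± 0.07 (edgeR adjusted p = 0.994). The ratios of the 3 genes tested whether they moved unequally. Atp5g1 over Atp5g2 differed by -0.47 (exact permutation p = 0.002, adjusted p = 0.016, lower in 10 of 10) and Atp5g1 over Atp5g3 by -0.15 (exact permutation p = 0.00599, adjusted p = 0.036, lower in 9 of 10). The last did not pass in 13 of 14 repeats that left out 1 library, and its values in the 14 were -0.16 to -0.13. Cox7a1 over Cox7a2 and Atp5g1 over Atp5g2 each did not pass in 3 of the 14. Those were the repeats without PBS_GFP replicate 2, 3 or 4 (exact permutation adjusted p = 0.0559). The differences there were -0.52, -0.54 and -0.49 for Cox7a1 over Cox7a2 and -0.45, -0.45 and -0.51 for Atp5g1 over Atp5g2. In every repeat that left 3 PBS_GFP hearts, both ratios were at the lowest p the exact test can reach. Whether they passed there depended on the adjustment over all ratio tests and says nothing about stability. Without the 5 deepest libraries the ratios of Cox7a1 over Cox7a2, Atp5g1 over Atp5g2 and Atp5g1 over Atp5g3 differed by -0.52, -0.44 and -0.13, and without the atrial-rich ones by -0.60, -0.47 and -0.15. With the hearts left there, the exact permutation test cannot go below p = 0.0556 and p = 0.0167, which all 3 ratios reached. The exact permutation adjusted p was 0.222 and 0.08, so these repeats say nothing about stability.

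In the head, Atp5a1 had 3407, 3038, 3132 and 3118 CPM in PBS_GFP and 2554 to 2996 CPM in C26_GFP, a change of -0.18 ± 0.06 (edgeR adjusted p = 0.0292). Atp5b, its catalytic partner, had 2670, 2332, 2433 and 2250 CPM in PBS_GFP and 2197 to 2621 CPM in C26_GFP, a value of -0.02 ± 0.06 (edgeR adjusted p = 0.827) with overlapping groups. The stalk genes Atp5d (delta subunit, -0.20 ± 0.06) and Atp5f1 (peripheral stalk subunit b, -0.21 ± 0.06) also fell; Atp5f1 overlaps Wdr77 by 751 bases on the opposite strand. Atp5k, a small membrane subunit at 13.4 ± 0.996 CPM in PBS_GFP (SD, n = 4) and 10.4 ± 1.55 CPM in C26_GFP (SD, n = 10), missed the threshold at -0.35 ± 0.15 (edgeR adjusted p = 0.069). The other 7 subunit genes, among them the gamma subunit Atp5c1, ranged from -0.16 to 0.03. Atp5s, a coupling factor, had -0.13 ± 0.08. The assembly factor gene Atp5sl, not counted among the complex V genes, fell by 0.24 ± 0.08 on the log2 scale (edgeR adjusted p = 0.0212).

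Other marker genes moved in the same comparison. Of 8 ventricular cardiomyocyte markers 5 fell and 1 rose; their summed level was 42739 to 48251 CPM in PBS_GFP and 33372 to 44812 CPM in C26_GFP. Of 6 macrophage markers 3 rose (186 to 220 CPM summed in PBS_GFP, 242 to 342 CPM in C26_GFP) and of 6 fibroblast markers 3 rose (934 to 1176 CPM, 1068 to 1622 CPM). The 2 tested genes of the skeletal muscle list, Acta1 and Ckm, which the heart also expresses, fell (5950 to 7346 CPM summed over the list in PBS_GFP, 3146 to 4259 CPM in C26_GFP). Of the other 7 skeletal muscle genes, the myosins Myh4, Myh2 and Myh1 were at 0 in 29, 27 and 25 of the 29 libraries, Actn3 in 9, Tnnt3 and Tnni2 in 4 each and Mylpf in 2, and the highest group mean among them was 0.80 CPM. Of the 6 genes of the brown adipocyte list, Ucp1, which defines brown fat, was at 0 in 27 libraries and Elovl3 in 14, while Cidea, Dio2, Cpt1b and Ppargc1a were at 0 in none. None of those 4, the ones tested, was called (482 to 561 CPM summed over the list in PBS_GFP, 492 to 669 CPM in C26_GFP). Of 6 endothelial markers 1 rose and 1 fell, and of 8 pericyte and smooth muscle markers 1 fell. Of 6 tested hepatocyte markers 2 fell. The sum over the hepatocyte list was 98.8 CPM in PBS_GFP replicate 2, against a PBS_GFP median of 2.17 CPM and 0.967 to 35.6 CPM in C26_GFP. The part of the markers that moved in these results was not tested. The count of 16 changed with the libraries used. With every library thinned to the depth of the smallest it was 14, all among the 16. Without PBS_GFP replicate 1 it was 6 (Cycs, Uqcrfs1, Cyc1, Uqcrc2, Atp5g1 and Atp5g3). Without the 5 libraries above 10000000 counts, 2 of PBS_GFP and 3 of C26_GFP, it was 3 (Cycs, Uqcrfs1 and Atp5g1), when 15% of all tested genes were called. The log2 fold changes without those 5 libraries were -0.67 ± 0.14, -0.43 ± 0.11 and -0.43 ± 0.12 for the 3, and all 9 complex III values stayed negative with a median of -0.29. Without PBS_GFP replicate 1, 7 of 9 complex III values were negative, with a median of -0.24. Over the 43 genes 34 values were then negative, and the median was -0.075.

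The second comparison asked whether the hepatocyte REV-ERBα vector altered these genes in tumour-bearing mice. It shares the C26_GFP libraries with the first, so opposite directions in the 2 are not independent. Of 43 genes 4 rose, 1 fell and 38 did not pass, while 3.75% of all genes rose and 3.45% fell (7.2% in either direction). The median was 0.04 against 0.00 over all genes. The genes that rose were Cycs, Uqcrfs1, Atp5g1 and Atp5g3; Atp5g2 fell.

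Cycs had 221 to 384 CPM with a median of 328 in C26_REV-ERBa, above the highest C26_GFP heart in 5 of 10, and changed by 0.34 ± 0.08 (edgeR adjusted p = 0.0174). The groups overlapped, with 1 C26_REV-ERBa heart, replicate 9, at 221 CPM. Uqcrfs1 had 1108 to 1607 CPM (median 1435), above all C26_GFP hearts in 7 of 10, a change of 0.19 ± 0.06 (edgeR adjusted p = 0.0363). The other complex III genes had values between -0.02 ± 0.07 for Uqcr10 and 0.18 ± 0.07 for Uqcrc1, none of which passed, and Cyc1 had 0.17 ± 0.08 (edgeR adjusted p = 0.156). No complex IV gene passed. Cox7a1, at 23.7 to 48.4 CPM (median 38.1) in C26_REV-ERBa, had a value of 0.30 ± 0.13 (edgeR adjusted p = 0.141), and Cox4i1 one of -0.01 ± 0.05.

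The c-ring genes moved apart under the vector. Atp5g1 had 218 to 348 CPM (median 294) in C26_REV-ERBa, a change of 0.22 ± 0.06 (edgeR adjusted p = 0.0373), and Atp5g3 had 370 to 571 CPM (median 497), a change of 0.20 ± 0.06 (edgeR adjusted p = 0.0422). Atp5g2 had 24.0 to 31.2 CPM, below the lowest C26_GFP heart in 9 of 10, a change of -0.18 ± 0.05 (edgeR adjusted p = 0.0474). The ratio of Atp5g1 over Atp5g2 had a mean of 2.99 ± 0.12 in C26_GFP and 3.38 ± 0.28 in C26_REV-ERBa on the log2 scale (SD, n = 10 each), a difference of 0.39 (permutation test, p = 0.00098, adjusted p = 0.016), above every C26_GFP heart in 9 of 10. Without the 5 deepest libraries this difference was 0.41 and did not pass (exact permutation adjusted p = 0.0617). The ratio of Atp5g1 over Atp5g3 differed by 0.02 (permutation adjusted p = 0.902). Cox7a1 over Cox7a2 differed by 0.34 (permutation p = 0.019, adjusted p = 0.076), above every C26_GFP heart in 6 of 10, and did not pass. In the head, Atp5a1 had 0.12 ± 0.05 (edgeR adjusted p = 0.0947) and Atp5b 0.03 ± 0.05.

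The count of this comparison rested on single libraries. Atp5g2 lost its call in 16 of the 20 repeats that left out 1 of its libraries, Atp5g3 in 14, and Uqcrfs1 and Atp5g1 in 9 each. Leaving out 1 library at a time gave 1 to 8 genes. The share of all tested genes called in each repeat is not given here, so these counts are not a result about these genes in particular. Only Cycs was called without C26_GFP replicate 1, 8 or 10 or C26_REV-ERBa replicate 3, 4, 7 or 10. A count of 2 was found without C26_GFP replicate 4 or 7 or C26_REV-ERBa replicate 1, and 3 without C26_GFP replicate 2, 3 or 5 or C26_REV-ERBa replicate 5 or 8. Without C26_REV-ERBa replicate 9, 7 rose, Uqcrc1, Uqcrc2 and Atp5a1 being added, and Atp5g2 fell. With the replicate number as a block only Cycs was called (edgeR adjusted p = 0.0431), when 2.25% of all tested genes were. Without the 5 deepest libraries 3 were (Cycs, Atp5g1 and Atp5g3), when 10% of all tested genes were. Summed ventricular cardiomyocyte markers were 35635 to 49501 CPM in C26_REV-ERBa with a median of 46705, against a median of 40319 in C26_GFP, and 1 of the 8 rose. Of macrophage markers 2 of 6 fell and of fibroblast markers 1 of 6; their part was not tested.

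Without a tumour, the vector changed none of the 43 genes, and 0% of all genes were called. At an unadjusted p under 0.05 there were 2 of 43, Cox7a2l and Cox7b, and 530 of all genes, and DESeq2 and limma voom called 0 of the 43. Cox7a2l had 235, 214, 225, 224 and 243 CPM in PBS_REV-ERBa, all below PBS_GFP, a value of -0.14 ± 0.06 (edgeR p = 0.0198, adjusted p = 1). Cox7b had a value of -0.18 ± 0.08 (edgeR p = 0.0429, adjusted p = 1), with 4 of 5 hearts below the lowest PBS_GFP heart. Cycs had 382, 349, 363, 377 and 338 CPM in PBS_REV-ERBa, a value of -0.13 ± 0.12 (95% interval -0.37 to 0.11) against PBS_GFP. Uqcrfs1 had 1635, 1458, 1368, 1612 and 1529 CPM, a value of -0.12 ± 0.08 (95% interval -0.29 to 0.04). With 4 and 5 hearts these intervals allow changes of either sign. The median over the 43 was -0.06.

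In mice with the REV-ERBα vector, the tumour changed none of the 43 genes, where 7.23% of all genes were called (4.05% higher and 3.19% lower). One of the 43, Atp5sl, had an unadjusted p under 0.05 (-0.17 ± 0.07, edgeR p = 0.0284, adjusted p = 0.155), against 3056 of the 12928 tested genes. DESeq2 and limma voom called 0 of the 43. Cycs had a value of -0.19 ± 0.10 (95% interval -0.38 to 0.01), Uqcrfs1 one of -0.10 ± 0.07 (-0.24 to 0.03), Atp5g1 one of -0.14 ± 0.08 (-0.29 to 0.02) and Cox7a1 one of -0.27 ± 0.16 (-0.58 to 0.04). The difference between the tumour effects, tested as an interaction, was called for none of the 43 and 0% of all genes. At an unadjusted p under 0.05 there were 8 of 43 and 1357 of all genes, and DESeq2 and limma voom called 0 of the 43. The interaction was 0.47 ± 0.15 for Cycs (edgeR p = 0.00326, adjusted p = 0.301), 0.32 ± 0.10 for Uqcrfs1 (edgeR adjusted p = 0.301) and 0.33 ± 0.12 for Atp5g1 (edgeR adjusted p = 0.347). That the tumour acted differently under the 2 vectors was therefore not shown for any single gene.

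The genes that build the complexes were read from lists of assembly factors and partners. Over all tested genes 14% fell and 14.2% rose in the first comparison, and whether a list differs from all genes was not tested. In the first comparison 3 of 6 complex III assembly genes fell and none rose, among them Uqcc1 (-0.65 ± 0.10) and Bcs1l, which inserts the Rieske protein (-0.62 ± 0.12). Of 26 complex IV assembly genes 12 fell and none rose, among them Higd1a (-0.79 ± 0.14), Coa5 (-0.63 ± 0.10) and the copper chaperone Sco1 (-0.55 ± 0.09). Of 5 genes of complex V assembly and inhibition 3 fell, Atpaf2 (-0.47 ± 0.08), Tmem70 (-0.44 ± 0.08) and Tmem242 (-0.40 ± 0.08). Hccs, which attaches haem to cytochrome c, fell by 0.46 ± 0.09 on the log2 scale, while Gfer, an oxidase of the import pathway that hands electrons to cytochrome c, rose by 0.34 ± 0.11. Complex I had 16 of 36 subunit genes lower and 1 higher with a median of -0.22, and complex II 1 of 4 lower, Sdhd (-0.38 ± 0.07). The medians of the assembly lists were -0.37, -0.24 and -0.40.

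Among 18 regulators of respiratory genes 4 fell and 2 rose, where 14% of all tested genes fell and 14.2% rose. Tfam, which maintains and transcribes mitochondrial DNA, fell by 0.47 ± 0.08 on the log2 scale, and Esrrb and Yy1 rose by 0.38 ± 0.09 and 0.24 ± 0.07. Of 19 genes of mitochondrial import and membrane shape 9 fell, among them the import receptors Tomm22 (-0.50 ± 0.07) and Tomm70a (-0.31 ± 0.05) and the fusion GTPase Opa1 (-0.36 ± 0.07). With the REV-ERBα vector in tumour-bearing mice, Uqcc1 (0.31 ± 0.08), Bcs1l (0.29 ± 0.09), Higd1a (0.40 ± 0.11), Coa5 (0.28 ± 0.08), Sco1 (0.26 ± 0.07), Atpaf2 (0.24 ± 0.06), Tfam (0.21 ± 0.07), Gabpa (0.14 ± 0.04), Mef2c (0.27 ± 0.06), Opa1 (0.20 ± 0.05), Tomm70a (0.14 ± 0.04) and Sdhd (0.18 ± 0.06) rose. These were 2 of 6, 3 of 26 and 1 of 5 genes of the assembly lists, 3 of 18 regulators and 1 of 4 complex II genes; 4 of 19 import and membrane genes rose and 1 fell. Of 36 complex I genes 1 was higher, Ndufs1 (0.18 ± 0.05), and 1 lower, Ndufa7 (-0.31 ± 0.08). Over all tested genes 3.75% rose and 3.45% fell with the vector in tumour-bearing mice. Gabpa overlaps the complex V gene Atp5j by 502 bases on the opposite strand, so reads of the 2 may be shared.

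Hearts of 1 group differed in these genes as a set. As the median over the 43 of each library's deviation from the gene's mean log2 CPM, PBS_GFP ranged from 0.03 to 0.25, PBS_REV-ERBa from -0.05 to 0.19, C26_GFP from -0.18 to 0.10 and C26_REV-ERBa from -0.24 to 0.25. The ranges of all groups overlapped. The highest library was PBS_GFP replicate 1, with 14740569 counts, closely followed by C26_REV-ERBa replicate 4, and the lowest was C26_REV-ERBa replicate 9. Replicate 9 also had the lowest summed ventricular marker level of its group (35635 CPM), the highest white adipocyte level (471 CPM) and the highest atrial level (3861 CPM). Its mean level over the brown adipocyte list was 4.86 log2 CPM, against 3.04 to 3.53 in the other 9 hearts of its group. The part of these in its values was not tested.

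**Figure D5:**
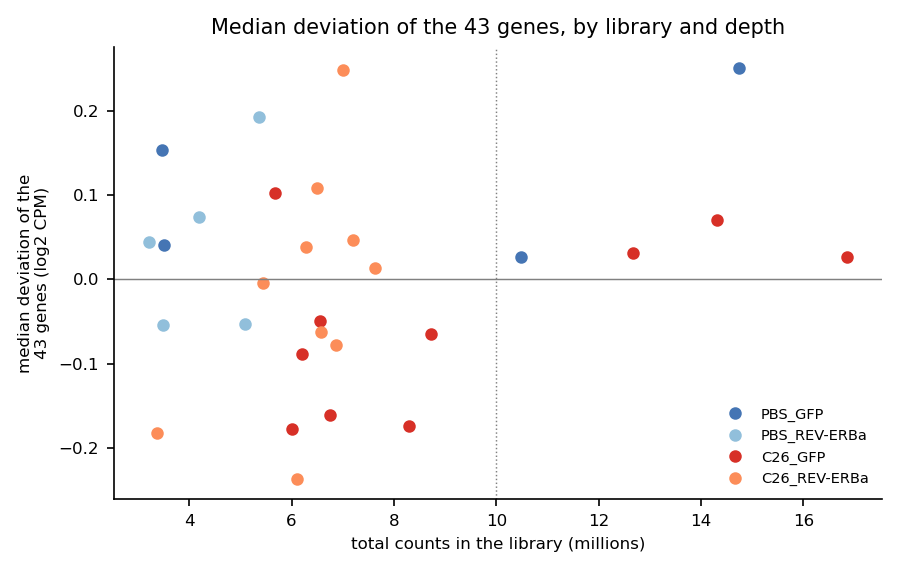
Median deviation of the 43 genes (log2 CPM) against total counts, 1 point per library; the dotted line marks 10000000 counts. The 5 libraries right of the line are from PBS_GFP and C26_GFP, and PBS_GFP replicate 1 is the highest point at 0.25.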

How the data were processed

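Hearts of 29 mice, each with its own animal label, were used. Per the labels' protocols, about 200 mg of tissue was lysed, libraries were made with a stranded kit from 50 to 100 ng of total RNA, polyadenylated or not, and read as pairs of 50 bp. The authors deposited raw read counts per RefSeq gene. Per the submitters' processing notes, mm10, DESeq2 1.24.0 and STAR 2.4.2a were used. No source used here gives the counter or its strand setting, so reads of overlapping genes cannot be told apart. One per-sample column that matched no label was not used. Groups came from the labels. Counts were filtered (filterByExpr, minimum count 10), scaled by TMM and fitted over all 29 libraries in edgeR 4.0.16 (R 4.3.3), with 1 mean per group. Ratios used a pseudocount of 0.5 count and permutation tests (scipy 1.17.1), exact where a group had under 10 libraries, otherwise with 100000 resamples. Intervals are the estimate ± 1.96 standard errors. The genes, lists, motifs and tests were chosen with earlier results of these data known. Named genes were Cycs, Cyc1, Uqcrc1, Uqcrfs1, Cox4i1, Cox5a, Atp5a1, Atp5b, the isoform pairs and the 6 smallest p-values per comparison, and up to 3 genes per pathway list. The procedure was tested on simulated data. Alternatives were other scaling, filters, DESeq2 1.42.0, limma 3.58.1, a replicate block, thinning and leaving libraries out. Same-numbered libraries did not deviate together (correlations -0.358 to 0.214).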

Additional observations from a re-analysis of the deposited data

Results flagged for a closer look

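Among 124 sets of values of 4 to 10 hearts (the named genes and the isoform ratios in each group), 10 held a heart whose gap to its nearest neighbour was large against the group's range by Dixon's criterion. Chance alone flags about 1 in 20 sets. C26_REV-ERBa replicate 9 was the low heart in 4 of them: Uqcrc2 at 233 CPM (next 292), Atp5a1 at 2514 CPM (next 2964), Atp5f1 at 355 CPM (next 407) and the log2 ratio of Cox8b over Cox8a at -0.85 (next -0.40). Its white adipocyte, brown adipocyte, atrial and ventricular marker levels are given above, and their part was not tested. In the same group, Cox6a1 was low in replicate 8 at 19.0 CPM (next 26.1) and Cox8b high in replicate 4 at 115 CPM. Uqcrc2 was high in PBS_REV-ERBa replicate 4 at 351 CPM (next 308), and Cox4i2 in C26_GFP replicate 7 at 8.73 CPM (next 5.70). In PBS_GFP replicate 4, Cox7a2l was low at 247 CPM (next 254), as was the log2 ratio of Atp5g1 over Atp5g2 at 3.31 (next 3.48).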

How the results depend on the processing

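In GFP mice the tumour count of 16 was 9 with the replicate block and 3 without libraries above 10000000 counts, and 6 to 18 when 1 library was left out (6 without PBS_GFP replicate 1). Of all tested genes 21.9%, 15% and 21.4% were called with the block, without the deep libraries and without that replicate, against 28.2%. With the vector in tumour-bearing mice the count of 5 was 8 at an adjusted p under 0.1 and with limma voom, 3 without the deep libraries, and 1 with no low-count filter, with the replicate block or with only the compared groups; leaving out 1 library gave 1 to 8. The shares of all genes were 7.2% at first, 13.2% and 13.7%, then 10%, then 4.05%, 2.25% and 2.65%, in the same order. Cycs passed in both comparisons under every alternative run, and Uqcrfs1 and Atp5g1 did for the tumour in GFP mice. Values that changed sign, none of them called, follow on the log2 scale with the cause not tested. For the tumour in GFP mice, the values were without the deep libraries Atp5b 0.015, without atrial-rich libraries Atp5g2 -0.014, after thinning Cox4i2 0.32, with upper quartile scaling Atp5g2 -0.011, with limma voom Atp5g2 -0.0034, with the replicate block Atp5b 0.0031. For the vector with a tumour, the values were without the deep libraries Cox4i1 0.032, Cox6a2 0.0052, Cox7a2 0.025, Cox8b 0.085 and Cox7b 0.015, without atrial-rich libraries Cox5a -0.048, Cox6a1 -0.038 and Atp5d -0.0014, after thinning Cox7a2 0.012 and Cox7b 0.0015, with upper quartile scaling Cox4i1 0.0081, Cox7a2l 0.0058 and Cox7b 0.011, with limma voom Cox7b 0.0043. For the vector without a tumour, the values were without atrial-rich libraries Cox8b/Cox8a -0.11, as a difference of medians Cox8b/Cox8a -0.038. For the tumour in REV-ERBα mice, the values were without atrial-rich libraries Cox8b/Cox8a 0.040 and Atp5g1/Atp5g2 0.026, as a difference of medians Cox8b/Cox8a 0.079. Isoform ratios lost the threshold under some settings: for the tumour in GFP mice, the values were without the deep libraries Cox7a1/Cox7a2 -0.52, Atp5g1/Atp5g2 -0.44 and Atp5g1/Atp5g3 -0.13, without atrial-rich libraries Cox7a1/Cox7a2 -0.60, Atp5g1/Atp5g2 -0.47 and Atp5g1/Atp5g3 -0.15, as a difference of medians Atp5g1/Atp5g3 -0.14; for the vector with a tumour, the values were without the deep libraries Atp5g1/Atp5g2 0.41. Others gained it: for the tumour in GFP mice, the values were as a difference of medians Cox6a2/Cox6a1 0.41; for the vector with a tumour, the values were as a difference of medians Cox7a1/Cox7a2 0.41. Leaving out 1 library gave these ranges. For the tumour in GFP mice, they were Atp5b -0.056 to 0.030, Atp5g2 -0.033 to 0.047, Atp5g1/Atp5g2 -0.51 to -0.44, Atp5g1/Atp5g3 -0.16 to -0.13, Cox6a2/Cox6a1 0.25 to 0.42, Cox7a1/Cox7a2 -0.54 to -0.45, Cox8b/Cox8a -0.13 to 0.024. For the vector with a tumour, they were Atp5d -0.0036 to 0.040, Cox4i1 -0.038 to 0.013, Cox4i2 -0.012 to 0.14, Cox5a -0.025 to 0.085, Cox7a2 -0.052 to 0.011, Cox7a2l -0.031 to 0.0036, Cox7b -0.037 to 0.021, Cox8b -0.11 to 0.029, Atp5g1/Atp5g3 -0.00073 to 0.054, Cox4i2/Cox4i1 -0.027 to 0.10, Cox7a1/Cox7a2 0.28 to 0.41. For the vector without a tumour, they were Atp5g1/Atp5g2 -0.098 to 0.025, Cox8b/Cox8a -0.054 to 0.099. For the tumour in REV-ERBα mice, they were Atp5g1/Atp5g2 -0.099 to 0.036, Cox8b/Cox8a -0.069 to 0.050. With 2 PBS_GFP and 7 C26_GFP hearts the exact test cannot go below p = 0.0556, and without the atrial-rich libraries it cannot go below p = 0.0167, before adjustment over the 24 tests.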

Other observations

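Usmg5 and 2010107E04Rik, ATP synthase subunit genes, carry other symbols in the table and so were not matched by the symbol rule; they were picked after the values of these data were known. Usmg5, a small membrane subunit that supports dimers of the enzyme, had a value of -0.31 ± 0.14 in the first comparison (edgeR adjusted p = 0.0874) and 0.05 ± 0.10 with the vector in tumour-bearing mice (edgeR adjusted p = 0.823). The proteolipid gene 2010107E04Rik had -0.20 ± 0.11 (edgeR adjusted p = 0.198) and 0.11 ± 0.09 (edgeR adjusted p = 0.479). Neither passed in any of the 5 contrasts.

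The genes described here are short, with a median counted length of 686 bases against 2855 bases over all tested genes. For the 20 of up to 600 bases the median log2 fold change in the first comparison was -0.13, against -0.00 over 218 other tested genes of that length. For the 10 of 600 to 1000 bases it was -0.12, against -0.04 over 675 other genes. For the 11 of 1000 to 2000 bases it was -0.21, against 0.00 over 2911 other genes. The 2 of 2000 to 4000 bases had -0.42, against 0.01 over 5285 other genes. The part of length in the changes was not tested.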
